A study of Mus musculus with 14 samples.

Results

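The liver genes described here are those of cytochrome P450 families 1 to 3 without Cyp1a2, Cyp2e1 and Cyp2f2. A gene was taken when its symbol in the annotation of the array platform began with Cyp1, Cyp2 or Cyp3 and went on with a lower-case letter and a number. This pattern matched 59 genes, and the 3 named above were left out, so that 56 genes of 14 subfamilies remained, out of 19505 genes with a symbol and 22206 probe sets tested. Each of the 56 had 1 probe set, a group of short DNA probes that reads the transcripts of a gene, so no choice between probe sets was needed. The RefSeq annotation lists 2 of the 56, Cyp2d13 and Cyp2d37-ps, as transcribed pseudogenes.

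The mice were 14 C57BL/6N males, and the liver of each was read on 1 Clariom S array. They were purchased at 10 weeks of age and acclimated to cages, clothes and metabolic chambers before the load. Those of the compression group (n = 7) wore adjustable clothes that had been tightened around the trunk to take 10% off the waist, and those of the no-compression group (n = 7) wore the same clothes without that tightening. All mice were unmodified, were given the same chow, and gave their livers 8 hours after the start of the load. They were under isoflurane briefly when the clothes were set and again before the livers were taken. The paper reports that the compression mice ate less and lost more weight during this load. The part of food intake in the results below was not tested. Mice of 1 sex, 1 strain and 1 time point were compared, and whole liver was used, in which fewer cells of a type and less RNA per cell cannot be told apart.

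Cytochromes P450 of these families are heme enzymes of the endoplasmic reticulum that put oxygen into drugs, plant compounds, steroids, bile acids and polyunsaturated fatty acids, with electrons from P450 oxidoreductase and cytochrome b5. In hepatocytes many of them are switched on by receptors that sense foreign compounds, among which the aryl hydrocarbon receptor is known for family 1, the constitutive androstane receptor (CAR, Nr1i3) for Cyp2b and part of Cyp2c, and the pregnane X receptor (PXR, Nr1i2) for Cyp3a. Several mouse members also differ between the sexes, because the sexes secrete growth hormone in different patterns.

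The values are log2 expression values as deposited, where a difference of 1 stands for a doubling of the signal. They come from a factor model of the probes, which flattens a probe set to nearly the same number on every array unless its probes rise and fall together. Probe sets with an SD above 0.01 over the 14 arrays are called probe sets with spread. They made up 32 of the 56 members (57.1%), against 1238 of all 22206 probe sets (5.58%). The member just above this limit was Cyp2d37-ps with an SD of 0.0466, the one just below was Cyp2c68 with 0.0006, and the other members without spread had an SD of 1.04e-05. A member without spread gives no information on a difference between mice, and is named below by its signal alone. Signals of different probe sets depend on their probes, so they are not set against each other as amounts of RNA.

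The array medians lay between 6.51 and 6.52. Hepatocyte markers (Alb, Apoa1, Ttr and Serpina1a, 4 of 6 measured) had mean signals of 13.09 to 13.39, while the 3 pancreas and 3 kidney markers had mean signals of 5.58 to 6.41 and no spread. A principal component analysis over the probe sets with spread placed 57.1% of their variance on its leading axis. Along it the compression livers ran from -4.35 to 2.25, no-compression replicates 6, 3 and 7 reached 16.7, 9.57 and 9.45, and the remaining no-compression livers ran from -6.73 to -3.34. These 3 no-compression livers stood apart from the rest in these arrays, and the values below are given with and without them. Neutrophil markers (3 of 4 measured, all with spread) were each highest in no-compression replicates 6 and 7. Replicate 3 came next in S100a8, but in Retnlg and S100a9 its values (6.02 and 6.08) lay below a compression liver (6.05 and 6.09). The mean level of these markers lay between 5.74 and 5.91 in compression livers and between 5.71 and 6.31 in no-compression livers. All 3 markers had the lower mean with compression (median log2 fold change -0.19, or 0.03 without the 3 livers). The Kupffer cell markers had a mean level between 8.05 and 8.19 in compression livers and between 8.06 and 8.31 in no-compression livers. Of the 6 measured 3 had spread. Among these, Cd5l and Marco were also highest in no-compression replicates 6 (9.78 and 7.81) and 7 (9.83 and 8.16). In Vsig4 replicate 6 (8.68) lay below a compression liver (8.71). The part of these cells in the results below was not tested.

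Compression livers and no-compression livers were not told apart in any of the 32 members with spread. The 24 members without spread could not have told them apart. With limma and Benjamini-Hochberg adjustment over all probe sets, 0 members passed the limit of 0.05 in either direction, as did 0 of 22206 probe sets (0%), and the lowest adjusted p of a member was 0.943. When limma was run on probe sets with spread alone, the lowest adjusted p among the 29 members with an SD above 0.1 was 0.57. An unadjusted limma p under 0.05 was found for 0 of 56 members, against 5.19% of all probe sets (2.73% higher and 2.45% lower) and 7.43% of those with spread. In all 32 members with spread the ranges of the groups overlapped, as they did in all 1238 probe sets with spread. An exact permutation test over the 3432 splits of the mice, whose smallest two-sided p is 0.000583, gave 0.0641 as the lowest p among these members, for Cyp2d22. The mean was higher with compression in 17 and lower in 15 of the 32 (48.3% higher and 51.7% lower among all probe sets with spread), and the median log2 fold change was 0.01. Without no-compression replicates 3, 6 and 7 the mean was higher in 12 and lower in 20 (46% higher among all probe sets with spread), the median was -0.01, and 19 of 32 directions turned (59.4%, against 50.1% of all probe sets with spread). The mean difference was at least 1.2-fold in 5 members, which were Cyp2b9, Cyp2d9, Cyp2c54, Cyp2c37 and Cyp2c50. Their log2 fold changes were 0.95, -0.08, -0.04, -0.004 and -0.03 without no-compression replicates 3, 6 and 7. The share of all probe sets that reached 1.2-fold was not counted. Over the 32 members the median size of the log2 fold change was 0.13, against 0.08 for all probe sets with spread. The p-values set the difference of the group means against the spread between these 14 mice.

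Rank products, the test named in the study's methods, ranks probe sets against each other within pairs of arrays, so that a probe set with spread comes out ahead of the nearly constant ones. At its FDR limit of 0.01 it passed 10 members as higher and 10 as lower with compression, against 1.26% and 1.22% of all probe sets. Among probe sets with spread it passed 22.1% as higher and 21.4% as lower, against 31.2% of the 32 members in each direction. When only probe sets with spread were ranked against each other, 0 members passed in either direction (0.242% and 0% of these probe sets). Without no-compression replicates 3, 6 and 7 it passed 2 members as higher and 0 as lower.

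The levels varied between mice. The median SD of the 32 members over the 14 arrays was 0.21, against 0.156 for all probe sets with spread. Among compression livers the median SD was 0.158, among no-compression livers 0.247, and among no-compression livers other than replicates 3, 6 and 7 it was 0.099. The SD was larger in the no-compression group in 22 of 32 members (68.8%, against 66.4% of all probe sets with spread) and, without the 3 livers, in 10 of 32 (31.2%, against 26.4%). Because the 3 livers were set aside for standing apart in these same data, a smaller SD without them follows in part from that choice. The plot of each mouse's deviation shows that the subfamilies differed in which mice stood high or low.

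**Figure D1:**
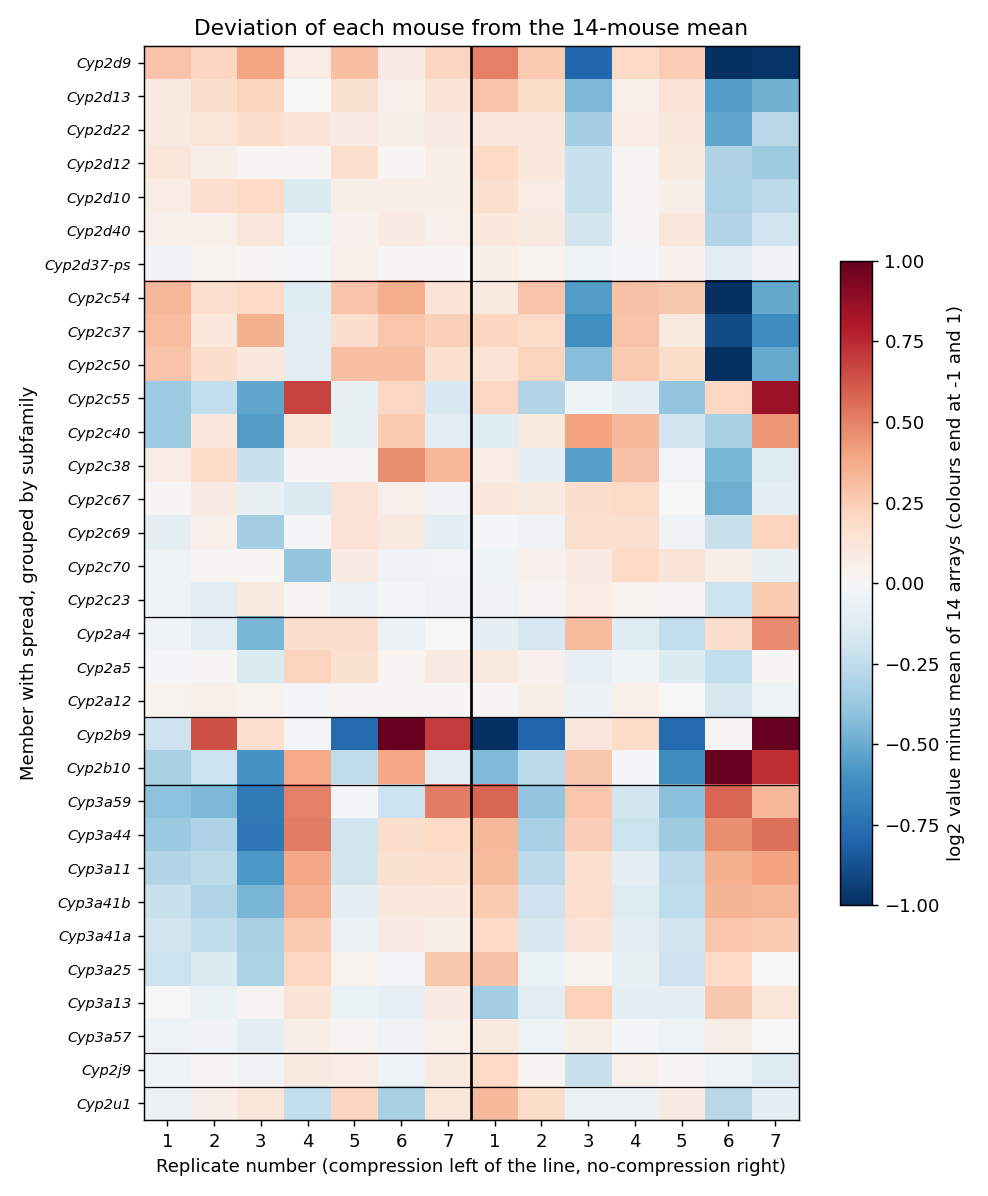
Deviation of each mouse (columns, compression replicates left of the line and no-compression replicates right of it) from the 14-mouse mean, in log2 units, for the 32 members with spread (rows, grouped by subfamily), with colours that end at -1 and 1. No-compression replicates 3, 6 and 7 are blue in all 7 Cyp2d rows and in Cyp2c37, Cyp2c50 and Cyp2c54, whereas in the Cyp3a rows both groups hold red and blue mice.

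In Cyp2d these 3 livers were the lowest throughout. The subfamily held 9 members on chromosome 15, 7 of them with spread, and no-compression replicates 3, 6 and 7 were the 3 lowest of the 14 arrays in all 7. Over all members this was so in 12 of 32 (37.5%), against 17.8% of all probe sets with spread, and they were the 3 highest in 0 of 32, against 16%. The most variable was Cyp2d9, a testosterone hydroxylase known to be higher in male than in female mouse liver. Its promoter is shown with that of its neighbour Cyp2d10, because both showed this pattern and the stretches resemble each other. The 150 bases before each start are from RefSeq's GRCm38.p6 (chr15:82452227-82452376, plus strand, and chr15:82407195-82407344, minus strand), written 5′ to 3′ along the gene, with capitals for the letters CAAAGNNCA, a pattern of the kind bound by the liver factor HNF4A.
Cyp2d9: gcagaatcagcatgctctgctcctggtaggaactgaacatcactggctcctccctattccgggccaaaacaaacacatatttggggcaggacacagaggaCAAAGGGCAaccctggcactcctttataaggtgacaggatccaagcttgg
Cyp2d10: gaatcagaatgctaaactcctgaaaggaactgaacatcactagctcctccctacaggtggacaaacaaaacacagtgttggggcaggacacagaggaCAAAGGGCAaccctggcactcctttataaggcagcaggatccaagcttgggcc

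Over the 250 bases before the start these promoters shared 209 bases (83.6%). Counted from the start, the capitals begin at position -50 in Cyp2d9 and -53 in Cyp2d10, and both have the same letters there.

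In compression livers the log2 value of Cyp2d9 was 11.99 at the lowest, 12.13 at the median and 12.31 at the highest, and in no-compression livers these were 10.92, 12.12 and 12.42. The medians were almost equal, and the low end of the no-compression group came from replicates 3, 6 and 7 with 11.13, 10.92 and 10.94, while the other 4 lay within or just above the compression range. The means were 12.14 ± 0.12 with compression and 11.70 ± 0.66 without (SD, n = 7 each), a log2 fold change of 0.44 (SE 0.25, limma with Benjamini-Hochberg adjusted p = 0.943, exact permutation p = 0.161), or -0.08 without the 3 livers.

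Cyp2d22, held to be the closest mouse counterpart of the main human drug-metabolizing member of this subfamily, varied little between compression livers (SD 0.04). Its values there were 11.29 at the lowest, 11.32 at the median and 11.40 at the highest, against 10.71, 11.30 and 11.34 in no-compression livers. All 7 compression livers and 4 no-compression livers thus lay within a narrow band, below which stood no-compression replicates 3, 6 and 7 with 10.89, 10.71 and 10.95. The log2 fold change of Cyp2d22 was 0.21 (SE 0.0988, limma adjusted p = 0.943), or 0.01 without these livers.

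The other Cyp2d members had the same 3 livers at the low end. Cyp2d13 had values of 11.93 to 12.16 in compression livers and 11.38 to 12.22 in no-compression livers, with a log2 fold change of 0.24. Cyp2d10 lay between 11.79 and 12.12 in compression livers and between 11.61 and 12.08 in no-compression livers, with a log2 fold change of 0.14. In Cyp2d10 and Cyp2d40 compression replicate 4 was the lowest compression liver, with values of 11.79 and 10.61, and it was the lowest of its group in 5 of the 7. Cyp2d12, Cyp2d40 and Cyp2d37-ps had log2 fold changes of 0.13, 0.10 and 0.02. All 7 means were higher with compression (median log2 fold change 0.14), but without no-compression replicates 3, 6 and 7 only Cyp2d22 was, and the median was -0.03. The median SD was 0.0607 between compression livers, 0.225 between no-compression livers and 0.0572 between the 4 others of these. Cyp2d26 had a mean signal of 12.34 and Cyp2d34 of 6.61, both without spread. Because the Cyp2d genes are alike in sequence, their probe sets may read each other's transcripts in part, which the files do not resolve.

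**Figure D2:**
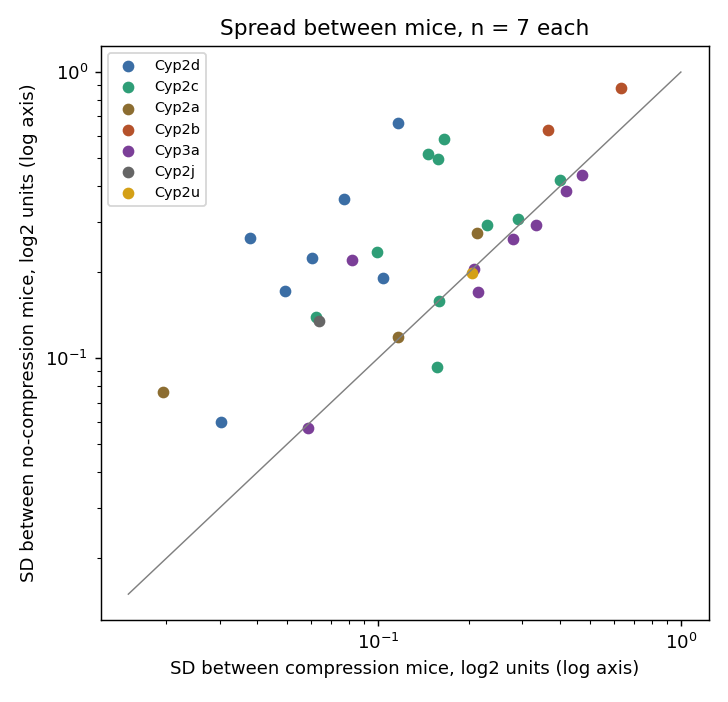
SD between compression mice (x axis) against SD between no-compression mice (y axis), in log2 units on log axes, n = 7 each, with 1 point per member with spread, coloured by subfamily, and a grey line where both are equal. All 7 Cyp2d points lie above the line, as 22 of 32 points do in all, while the Cyp3a points other than 1 lie on or below it.

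Cyp2c, with 14 members on chromosome 19 and 10 with spread, fell into sets that followed different mice. Its enzymes act on arachidonic and linoleic acid and on many drugs. Cyp2c37, Cyp2c54 and Cyp2c50, which stand side by side in the order of the members along the chromosome, were the ones in which no-compression replicates 3, 6 and 7 were lowest. Cyp2c70, which follows Cyp2c50 and makes the muricholic acids that set mouse bile apart from human bile, did not share this. The promoters of Cyp2c37, Cyp2c50 and Cyp2c70 are shown for that contrast, 150 bases each from RefSeq's GRCm38.p6 (chr19:39992274-39992423, plus strand, chr19:40089529-40089678, plus strand, and chr19:40187287-40187436, minus strand), with CAAAGNNCA in capitals.
Cyp2c37: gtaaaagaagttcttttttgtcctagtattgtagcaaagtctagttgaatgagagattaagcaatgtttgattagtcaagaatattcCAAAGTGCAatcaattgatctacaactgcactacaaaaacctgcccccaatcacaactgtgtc
Cyp2c50: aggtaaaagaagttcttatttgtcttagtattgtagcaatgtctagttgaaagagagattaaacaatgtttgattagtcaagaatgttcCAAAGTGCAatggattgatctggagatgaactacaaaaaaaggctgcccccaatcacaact
Cyp2c70: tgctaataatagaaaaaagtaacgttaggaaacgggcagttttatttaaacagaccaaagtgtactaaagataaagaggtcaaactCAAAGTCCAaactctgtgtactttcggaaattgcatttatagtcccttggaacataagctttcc

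Cyp2c37 and Cyp2c50 shared 215 of 250 bases before the start (86%), Cyp2c37 and Cyp2c70 133 (53.2%). Cyp2c37 and Cyp2d9, whose lowest values came from the same no-compression livers, shared 124 (49.6%). Whether promoter likeness goes with these low values was not tested. All 3 Cyp2c promoters shown held the letters CAAAGNNCA, which began at positions -63, -61 and -64 from the start of Cyp2c37, Cyp2c50 and Cyp2c70. Cyp2c54 has no entry among the promoters used here.

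For Cyp2c54 the values were 11.00 at the lowest, 11.33 at the median and 11.49 at the highest in compression livers, and 9.91, 11.22 and 11.42 in no-compression livers. The lowest no-compression liver was replicate 6, below replicates 3 and 7 with 10.57 and 10.62, and the other 4 were between 11.22 and 11.42, inside the compression range. Over all 14 livers Cyp2c54 spanned 3.00-fold, against 1.41-fold within the compression group. Its log2 fold change was 0.38 (SE 0.225, limma adjusted p = 0.943), or -0.04 without the 3 livers.

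Cyp2c37 ran from 11.00 over a median of 11.35 to 11.47 in compression livers, and from 10.22 over 11.20 to 11.40 in no-compression livers. Cyp2c50 ran from 11.63 over a median of 11.91 to 12.04 in compression livers, and from 10.64 over 11.87 to 12.00 in no-compression livers. In both the same 3 no-compression livers lay below every other mouse. Their log2 fold changes were 0.38 (SE 0.193) and 0.35 (SE 0.199), with limma adjusted p = 0.943 for each, or -0.004 and -0.03 without the 3 livers. In all 3 of these genes compression replicate 4 was the lowest compression liver.

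For Cyp2c70 the values were 11.00, 11.37 and 11.48 (lowest, median, highest) in compression livers, and 11.32, 11.45 and 11.59 in no-compression livers. Compression replicate 4 stood alone at the low end, and no-compression replicates 3, 6 and 7 lay at 11.48, 11.45 and 11.32 among the rest. The log2 fold change was -0.11 (SE 0.0673, limma adjusted p = 0.943), or -0.14 without the 3 livers. Its direction was the same in both, and the groups overlapped.

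Cyp2c55, a member known to be induced through CAR and PXR, was the most variable Cyp2c gene within the compression group, with values of 6.91, 7.28 and 8.11 (lowest, median, highest), against 7.05, 7.39 and 8.30 in no-compression livers. The high ends were single livers, compression replicate 4 and no-compression replicate 7. For the group means the log2 fold change was -0.13 (SE 0.215, limma adjusted p = 0.985), or 0.07 without the 3 livers.

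Cyp2c38 ran from 9.56 over 9.86 to 10.25 in compression livers and from 9.24 over 9.69 to 10.08 in no-compression livers, with no-compression replicates 3 and 6 as the lowest of all mice. The difference came to a log2 fold change of 0.25 (SE 0.137, limma adjusted p = 0.943), or 0.06 without the 3 livers. Cyp2c40, an arachidonic acid hydroxylase, ran from 8.78 over 9.27 to 9.60 in compression livers and from 9.02 over 9.43 to 9.78 in no-compression livers. No-compression replicates 3 and 7 were its highest and no-compression replicate 6 the lowest of its group, so the 3 livers did not move together in this gene. Between groups the log2 fold change was -0.18 (SE 0.156, limma adjusted p = 0.979), or -0.11 without them.

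The remaining members with spread, Cyp2c67, Cyp2c69 and Cyp2c23, an epoxygenase of arachidonic acid, had log2 fold changes of 0.01, -0.07 and -0.05. In Cyp2c67 no-compression replicate 6 stood alone with 10.95, below every other liver, which lay between 11.29 and 11.63. Over the 10 genes 5 means were higher and 5 lower with compression (median log2 fold change -0.02), and once no-compression replicates 3, 6 and 7 were left out 2 were higher and 8 lower (median -0.04). Cyp2c68 (10.53), Cyp2c39 (7.29), Cyp2c65 (6.18) and Cyp2c66 (5.85) had no spread.

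Cyp3a held 9 members on chromosome 5, 8 of them with spread, and in these genes the mice differed within both groups. Cyp3a11, the best known target of PXR and the main mouse member of a subfamily that in humans metabolizes a large share of drugs, is shown with Cyp3a44 and Cyp3a41a, which are known as genes of female liver and were measured here in males. Their promoters, given because the 3 genes followed the same mice, are again 150 bases from RefSeq's GRCm38.p6 (chr5:145879855-145880004, minus strand, chr5:145805875-145806024, minus strand, and chr5:145720137-145720286, minus strand), with CAAAGNNCA in capitals.
Cyp3a11: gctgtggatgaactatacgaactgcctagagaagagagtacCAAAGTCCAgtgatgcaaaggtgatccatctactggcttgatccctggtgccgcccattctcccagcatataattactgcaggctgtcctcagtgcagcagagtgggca
Cyp3a44: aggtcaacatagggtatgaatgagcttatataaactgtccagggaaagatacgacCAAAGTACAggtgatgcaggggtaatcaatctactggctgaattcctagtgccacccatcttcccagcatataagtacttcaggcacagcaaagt
Cyp3a41a: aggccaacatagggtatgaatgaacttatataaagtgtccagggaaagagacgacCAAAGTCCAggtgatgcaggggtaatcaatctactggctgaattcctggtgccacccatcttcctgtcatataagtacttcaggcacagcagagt

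Cyp3a44 and Cyp3a41a shared 236 of 250 bases before the start (94.4%), and Cyp3a11 shared 190 (76%) with each. Cyp3a41a and Cyp3a41b shared 249 (99.6%), and with genes this close the probe sets may read each other's transcripts, so the values of Cyp3a41a, Cyp3a41b and Cyp3a44 in particular are not sure to be those of single genes.

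Cyp3a11 had values of 11.83, 12.22 and 12.79 (lowest, median, highest) in compression livers and of 12.13, 12.56 and 12.80 in no-compression livers. In the compression group replicate 3 was lowest and replicate 4 highest, and in the no-compression group replicates 1, 3, 6 and 7 (12.56 to 12.80) lay above replicates 2, 4 and 5 (12.13 to 12.31). The spread within the compression group, 1.95-fold between extremes, was almost as wide as that over all 14 livers, 1.96-fold. Means were 12.31 ± 0.33 with compression and 12.49 ± 0.29 without (SD, n = 7 each), a log2 fold change of -0.18 (SE 0.164, limma adjusted p = 0.979, exact permutation p = 0.292), or -0.01 without no-compression replicates 3, 6 and 7.

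Cyp3a59 was the widest of the subfamily, with 9.02, 9.51 and 10.24 in compression livers and 9.31, 10 and 10.31 in no-compression livers (lowest, median, highest). Compression replicates 4 and 7 and no-compression replicates 1 and 6 shared the top within a range of 10.23 to 10.31, so the groups covered almost the same ground. Its log2 fold change of -0.22 (SE 0.238, limma adjusted p = 0.979) was the lowest of the 56 genes, and was -0.01 without the 3 livers.

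Cyp3a44 ran from 7.77 over 8.28 to 9 in compression livers and from 8.13 over 8.73 to 9.03 in no-compression livers. Cyp3a41b ran from 7.47 over 7.84 to 8.28 in compression livers and from 7.68 over 8.10 to 8.27 in no-compression livers. Cyp3a41a ran from 6.50 over 6.76 to 7.08 in compression livers and from 6.63 over 6.95 to 7.10 in no-compression livers. In all 3, as in Cyp3a11, compression replicate 3 was the lowest and replicate 4 the highest of the compression livers. Their log2 fold changes were -0.20, -0.14 and -0.12, each with a limma adjusted p of 0.979, and 0.04, 0.01 and 0.01 without the 3 livers.

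Cyp3a25 and Cyp3a57 had log2 fold changes of -0.05 and -0.02. Cyp3a13, which stands apart from the others along the chromosome, followed other mice, with 10.96 to 11.17 in compression livers and 10.69 to 11.31 in no-compression livers, where replicates 3 and 6 were the highest. Its log2 fold change rounded to 0.00, or 0.16 without the 3 livers (limma adjusted p = 0.996 and 0.954). Over the 8 genes with spread the mean was lower with compression in 7 and higher in 1 (median log2 fold change -0.13), and lower in 3 and higher in 5 without no-compression replicates 3, 6 and 7 (median 0.00). Compression replicate 4 was the highest compression liver in 6 of the 8 and replicate 3 the lowest in 7. Over all 32 members with spread replicate 4 was the highest in 9 and replicate 3 the lowest in 14. Among all probe sets with spread replicate 4 was the highest compression liver in 20.6%, and the share for replicate 3 was not counted. Cyp3a16, a gene of fetal and newborn liver, had a mean signal of 5.72 and no spread.

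**Figure D3:**
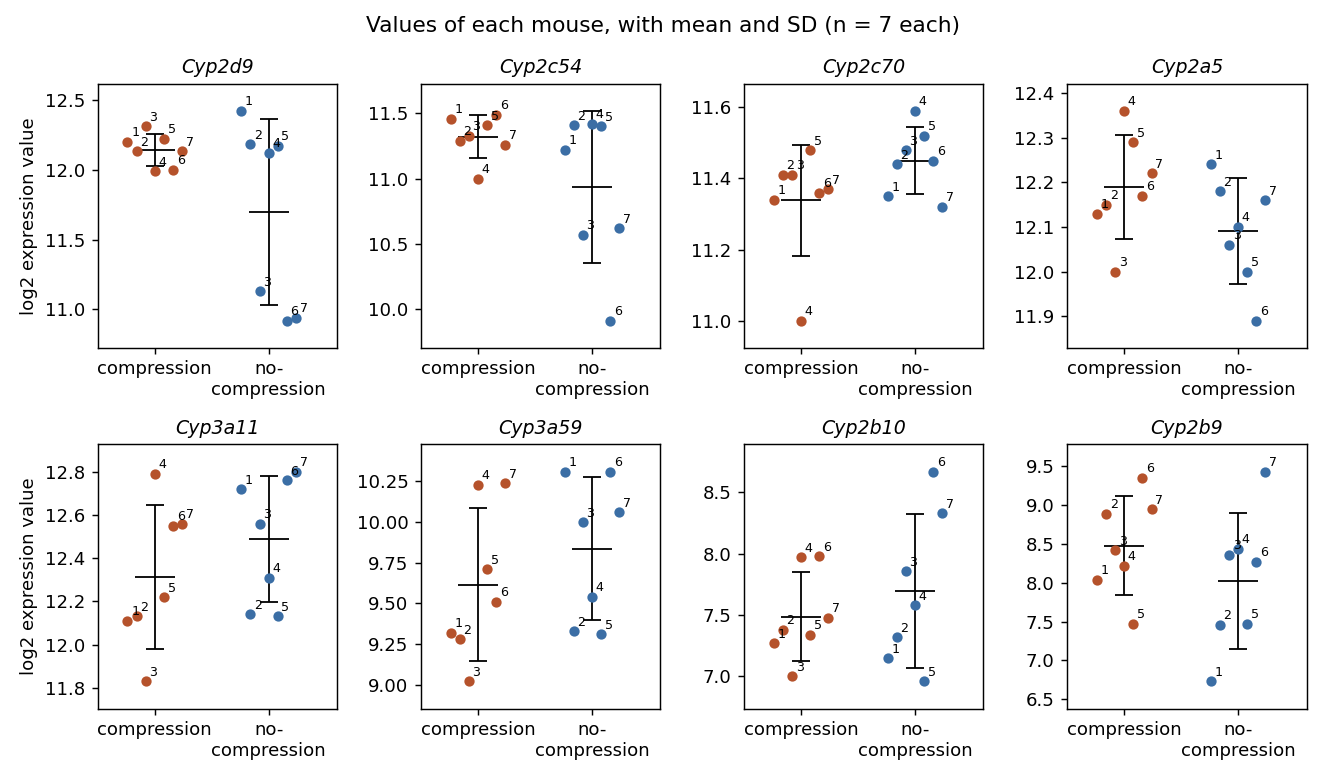
Log2 expression values of 8 members in each mouse, compression in orange at the left and no-compression in blue at the right, with replicate numbers, the mean (long dash) and SD (bars, n = 7 each), each panel on its own axis. No-compression replicates 3, 6 and 7 lie below the rest in Cyp2d9 and Cyp2c54 but not in Cyp2c70 or Cyp3a11, and the groups overlap in all 8 panels.

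Cyp2b, the subfamily known for induction by phenobarbital through CAR, had the widest spread between mice. Of 5 members on chromosome 7 only Cyp2b9 and Cyp2b10 had spread, while Cyp2b23, Cyp2b13 and Cyp2b19 had mean signals of 6.44, 6.28 and 5.56 and none. Cyp2b9, a gene of female liver, had values of 7.47, 8.42 and 9.35 in compression livers and 6.73, 8.27 and 9.43 in no-compression livers (lowest, median, highest). Both its lowest and its highest value belonged to the no-compression group, in replicates 1 and 7, a span of 6.52-fold that was the largest of the 56 genes. The means were 8.48 ± 0.64 and 8.02 ± 0.88 with and without compression (SD, n = 7 each), and the log2 fold change of 0.45 was the highest of the 56 genes (SE 0.402, limma adjusted p = 0.979, exact permutation p = 0.283). It was 0.95 without no-compression replicates 3, 6 and 7 (limma adjusted p = 0.982). Single livers moved it as well, to 0.24 without no-compression replicate 1, where Cyp2d9 had 0.56, and to 0.69 without no-compression replicate 7.

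Cyp2b10, the classic CAR target, had values of 7.00, 7.38 and 7.98 in compression livers and 6.96, 7.58 and 8.67 in no-compression livers. The 2 highest were no-compression replicates 6 and 7 with 8.67 and 8.33, which were also low in Cyp2d9 and Cyp2c54. Its log2 fold change was -0.20 (SE 0.27, limma adjusted p = 0.985), or 0.24 without the 3 livers. The 250-base stretches before Cyp2b9 and Cyp2b10 shared 182 bases (72.8%).

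Cyp2a, also on chromosome 7, had 3 of 4 members with spread. Cyp2a5, the coumarin hydroxylase of mouse liver, had values of 12.00, 12.17 and 12.36 in compression livers and 11.89, 12.10 and 12.24 in no-compression livers. Only compression replicates 4 and 5 exceeded every no-compression liver, and the other 5 lay within its range. The log2 fold change was 0.10 (SE 0.0623, limma adjusted p = 0.943, exact permutation p = 0.14), or 0.06 without the 3 livers. Cyp2a4, a testosterone hydroxylase close to Cyp2a5 in sequence, ran from 10.30 over 10.71 to 10.93 in compression livers and from 10.51 over 10.66 to 11.23 in no-compression livers, where replicates 7, 3 and 6 were the highest of their group. The log2 fold change of Cyp2a4 was -0.09, or 0.11 without the 3 livers. Cyp2a12, which hydroxylates bile acids, had an SD of 0.02 between compression livers and 0.07 between no-compression livers and a log2 fold change of 0.04. In Cyp2a12 no-compression replicates 3, 6 and 7 were again the 3 lowest of all mice, with 11.67, 11.57 and 11.68. Cyp2a22 had a mean signal of 8.45 and no spread.

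**Figure D4:**
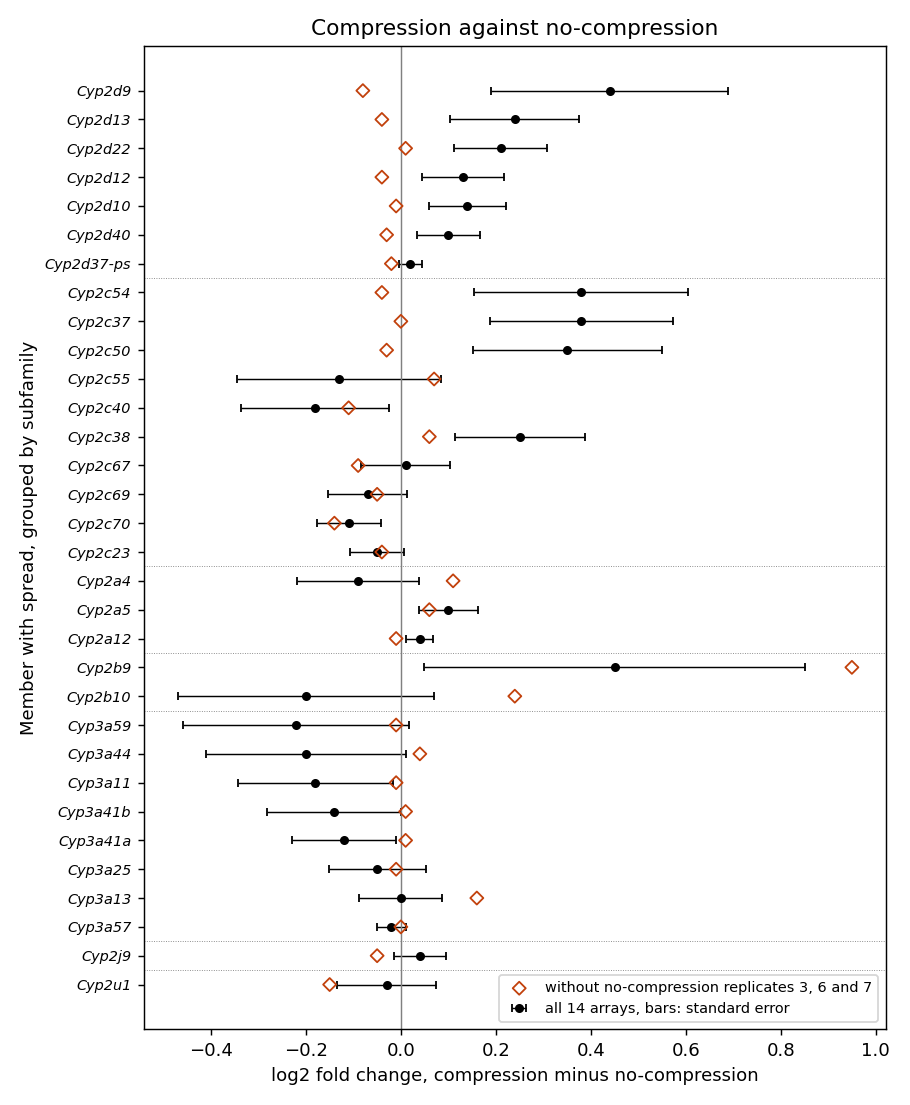
Log2 fold change, compression minus no-compression (x axis), of the 32 members with spread (rows), as black points with standard errors over all 14 arrays and as open diamonds without no-compression replicates 3, 6 and 7. The black points of Cyp2d lie right of 0 and those of Cyp3a at or left of it, and most diamonds of both lie close to 0, whereas that of Cyp2b9 lies at 0.95.

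Outside these subfamilies only Cyp2j9 and Cyp2u1 had spread. Cyp2j9 had values of 7.72, 7.78 and 7.86 in compression livers and 7.55, 7.78 and 7.97 in no-compression livers (lowest, median, highest), again with no-compression replicates 3, 6 and 7 as the 3 lowest, and a log2 fold change of 0.04. Cyp2u1, which hydroxylates long-chain fatty acids, ran from 8.63 over 9.02 to 9.17 in compression livers and from 8.68 over 8.90 to 9.28 in no-compression livers, with a log2 fold change of -0.03. Cyp2j5, an arachidonic acid epoxygenase, had a mean signal of 12.01 and Cyp2j6 of 8.94, without spread, as had the other 4 Cyp2j members between 5.17 and 5.78. Cyp1a1, the sentinel target of the aryl hydrocarbon receptor, had a mean signal of 5.95 and Cyp1b1 of 5.79, and neither had spread. Cyp2r1, a vitamin D hydroxylase, had 8.08, and Cyp2g1, Cyp2s1, Cyp2w1 and Cyp2t4 lay between 5.31 and 6.62, all without spread.

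The promoters of the members had sequence features in common. Of the 56 genes 47 were in the RefSeq table of GRCm38.p6, with 50 promoters. The letters CAAAGNNCA, sought on both strands over the 250 bases before the start, were found in 23 of 50 (46%), against 5.49% of 32851 promoters of all genes, and in 18 of the 26 promoters of members with spread (69.2%). This pattern was chosen after the sequences had been seen, and since many members arose by gene duplication their promoters are not independent. TATAAA was found in 42% (12.4% of all), AGTTCA, a block of nuclear receptor sites, in 16% (11.8%), GCGTG, the core bound by the aryl hydrocarbon receptor, in 18% (28.2%), and TTCNNNGAA, of the STAT5 type, in 4% (7.02%). CAAAGNNCA was present in Cyp2d9, Cyp2d10, Cyp2d40, Cyp2c37, Cyp2c50 and Cyp2a12, in which no-compression replicates 3, 6 and 7 were lowest, and equally in Cyp2c70, Cyp3a11 and Cyp3a44, in which they were not, whereas Cyp2j9, in which they were also lowest, had no match. A CAAAGNNCA match with TT in its free places also holds AGTTCA. A match is a description of the letters and not a measured binding site.

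The regulators and partners of these enzymes were examined as 4 lists, with 0 genes past the adjusted limit of limma in each. An unadjusted limma p under 0.05 was found for Nr1i3, Cebpa and Foxa2 among the regulators, for Alas1 and Pgrmc1 in electron supply and heme, and for none in the other 2 lists, against 5.19% of all probe sets, and Cebpa, Foxa2 and Pgrmc1 had no spread. The calls of rank products in these lists are to be read against its 22.1% higher and 21.4% lower among probe sets with spread (1.26% and 1.22% of all). Of 18 receptors and transcription factors of P450 induction 17 were measured and 6 had spread, 5 higher and 1 lower with compression (median log2 fold change 0.05, or 0.10 without the 3 livers), and rank products passed 4 as higher, of which Cebpa had no spread, and 1 as lower. Nr1i3, which encodes CAR, had values of 10.54, 10.91 and 10.98 in compression livers and 9.63, 10.73 and 10.85 in no-compression livers. No-compression replicates 3, 6 and 7 were the 3 lowest of all with 9.76, 9.63 and 9.97, the same mice as in Cyp2d. For Nr1i3 the log2 fold change was 0.50 (SE 0.207, limma adjusted p = 0.943, exact permutation p = 0.0385 unadjusted), or 0.08 without the 3 livers. Foxa1, a liver pioneer factor, had a log2 fold change of 0.17 (limma adjusted p = 0.967), or -0.02 without them, and the same 3 livers were lowest. Bcl6, Onecut1, Cux2 and Ppargc1a had log2 fold changes of -0.21, 0.09, 0.01 and 0.01. Ahr, Nr1i2, Hnf4a, Rxra and Stat5b had no spread.

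Of 16 genes of electron supply and heme 14 were measured and 7 had spread, 5 higher and 2 lower (median log2 fold change 0.06, or 0.01 without the 3 livers), and rank products passed 2 in each direction. Alas1, which makes the first intermediate of heme, lay between 12.50 and 12.70 in compression livers and between 12.42 and 12.69 in no-compression livers, a log2 fold change of 0.09 with and without the 3 livers. Hmox1, which breaks heme down, was highest in no-compression replicates 6 and 7 with 9.42 and 9.25, and its log2 fold change was -0.29 (limma adjusted p = 0.96), or 0.05 without the 3 livers. Cyb5b and Cyb5r3, of the cytochrome b5 system, had log2 fold changes of -0.09 and 0.06, and Cpox and Blvrb, of heme synthesis and breakdown, 0.10 and 0.09.

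Other targets of the same receptors showed no common direction, since of 13 of 17 measured 7 had spread, 4 higher and 3 lower (median log2 fold change 0.00 with and without the 3 livers), and rank products passed 3 as higher and 2 as lower. Gstm3, Ces2a, Ephx1, Abcc2, Slco1a4 and Myc had log2 fold changes of -0.12, -0.15, 0.12, 0.09, -0.07 and 0.17. Of 10 sex-biased liver genes 8 were measured and 6 had spread, all 6 with the higher mean with compression (median log2 fold change 0.56), but once no-compression replicates 3, 6 and 7 were left out 1 was higher and 5 were lower (median -0.25). Rank products passed 5 as higher and 4 as lower, with Elovl3, Hsd3b5 and Slco1a1 in both, and Serpina1e, the other one passed as lower, had no spread. Slco1a1, a transporter of male liver, lay between 10.38 and 11.27 in compression livers and between 6.78 and 11.39 in no-compression livers, where replicates 6, 7 and 3 were the lowest of all 14 with 6.78, 9.63 and 10.04. Hsd3b5 and Elovl3, also male-biased, had these same 3 livers as the lowest, and Cyp4a12a and Mup20 had replicates 6 and 7 as the lowest. The log2 fold changes of Slco1a1, Hsd3b5, Elovl3, Cyp4a12a and Mup20 were 0.71, 0.66, 0.51, 0.43 and 0.19, and -0.35, -0.60, -0.55, -0.16 and -0.11 without the 3 livers. Acot3 had a log2 fold change of 0.61, or 0.44 without them. What set these 3 no-compression livers apart was not tested.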

How the data were processed

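Hepatic RNA of 14 mice (7 compression, 7 no-compression, groups taken from the sample labels) was hybridized to Clariom S arrays, 1 per mouse, as cDNA from 200 ng of total RNA. The deposited log2 expression values had been made by the authors with qFarms, which joins quantile normalization with a factor analysis of the probes, in R 3.4.4 according to the submitters' processing notes. That summary cannot be undone here, and where it leaves a probe set constant a difference cannot be seen. Of 29129 rows 6923 control rows were left out and 22206 probe sets were tested. Arrays have no read depth, and their number limits the precision. Probe sets were named by the annotation of the array platform, and all 56 Entrez numbers were found in RefSeq with the same symbol.
The main test was that of limma (version 3.58.1, lmFit and eBayes, run in R 4.3.3, two-sided, Benjamini-Hochberg over all probe sets, limit 0.05). Rank products (FDR limit 0.01, after the methods of the study) was coded anew over 49 random pairings of the arrays, since the original package was not run. Python 3.11.15, pandas 2.3.3, scipy 1.17.1 and numpy 2.4.6 were used. Exact permutation tests of the difference of means used all 3432 splits. The scripts were tested on simulated data. Figures were drawn with matplotlib 3.10.9.
The text names members with an SD above 0.1, the member with the highest mean of each subfamily, the hallmark genes Cyp1a1, Cyp2a5, Cyp2b10 and Cyp3a11, the 3 highest and 3 lowest log2 fold changes, and members of the pathway lists with an SD above 0.1. Other genes were named for completeness, with their values known. The members, the lists and the alternative without no-compression replicates 3, 6 and 7 were chosen with earlier results of these data known. Promoters are from RefSeq (GRCm38.p6), and no sequence of the array probes was used. The alternatives were other normalizations, filters, settings of the tests, blocks of equal replicate number, and leaving out arrays.
Lists were those of P450 regulators, electron supply and heme, other receptor targets, sex-biased genes, and markers of cell types. Markers of T and NK cells, B cells, endothelial cells, cholangiocytes, pancreas and kidney had 0 members with spread, and the only markers with spread of stellate cells, erythroid cells and intestine (Dcn, Alas2 and Fabp2) had log2 fold changes of 0.02, 0.01 and -0.00.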

Additional observations from a re-analysis of the deposited data

Results flagged for a closer look

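Single livers stood far from the rest of their group in 4 of the 64 sets of 7 values tested (32 members with spread in each group), by Dixon's criterion at the 95% level, where chance gives about 1 in 20, or 3.2. In compression livers replicate 4 was the low value of Cyp2c70 with 11.00 (next lowest 11.34), of Cyp2d10 with 11.79 (next lowest 11.98) and of Cyp2d40 with 10.61 (next lowest 10.70). In no-compression livers replicate 6 was the low value of Cyp2c67 with 10.95 (next lowest 11.34). Compression replicate 4 was the lowest compression liver in 11 of 32 members (34.4%, against 21.6% of all probe sets with spread) and the highest in 9 (28.1%, against 20.6%).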

How the results depend on the processing

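No member passed limma under any alternative or in an exact Wilcoxon test with Benjamini-Hochberg adjustment, and the lowest adjusted p ranged between 0.36 (median centring) and 0.999 (trend and robust). Rank products, with 10 members higher and 10 lower over all arrays, gave 0 and 0 among probe sets with spread alone, 2 and 0 when no-compression replicates 3, 6 and 7 were removed, and 3 lower among probe sets with a mean above the median. With 1 array left out it gave 6 to 10 higher (6 without compression replicate 2 or no-compression replicate 3, 6 or 7) and 2 to 8 lower (2 without compression replicate 1 or 3 or no-compression replicate 7). The cause was not tested. Same-numbered mice did not deviate together (r between -0.49 and 0.34, 2 of 7 above 0.1, 1 of 7 nearest to its own number). The labels do not say whether the numbers pair mice, and these correlations cannot decide it. With the replicate number as a block limma passed 0 members (lowest adjusted p 0.892) and rank products 10 higher and 9 lower.
The log2 fold changes of 16 of 29 named members turned when no-compression replicates 3, 6 and 7 were removed, to 0.11 in Cyp2a4, 0.24 in Cyp2b10, 0.07 in Cyp2c55, 0.04 in Cyp3a44, 0.01 in Cyp3a41b and Cyp3a41a, -0.04 in Cyp2c54, -0.004 in Cyp2c37, -0.03 in Cyp2c50, -0.09 in Cyp2c67, -0.08 in Cyp2d9, -0.04 in Cyp2d13 and Cyp2d12, -0.01 in Cyp2d10, -0.03 in Cyp2d40 and -0.05 in Cyp2j9. Quantile normalization turned Cyp2c67 (-0.00048) and Cyp3a13 (-0.0027). With 1 array left out 14 of 406 values turned, in Cyp2c67 (-0.07 to 0.04), Cyp2u1 (-0.08 to 0.02) and Cyp3a13 (-0.05 to 0.05), and the others kept their direction. The mean over probe sets of a gene was not run, because each member had 1. The 24 members without spread give no information on a difference, and the number of arrays, 7 a group, limits the precision of the others.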
